A study of Mus musculus with 6 samples.

Results

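Cytosolic ribosomal proteins were examined in shafts of the humerus taken from E16.5 mouse embryos. Members were the amplicons whose gene symbol begins with Rpl or Rps and a digit, or is Rpsa or Rplp0 to Rplp2, without ribosomal S6 kinases, named pseudogenes and Rps19bp1. This gave 24 members of the 23930 amplicons in the table, 16 of them canonical ribosomal proteins and 8 counted as paralogues. Among the paralogues, Rps4l and Rpl32l are annotated as processed pseudogenes, though their symbols do not name them so. The study compared 3 control samples of genotype Stat3C/+, which the labels call wild type, with 3 samples of genotype Prrx1Cre; Stat3C/C, called knockout here. The Prrx1Cre driver is active in limb bud mesenchyme, from which bone and cartilage cells arise, so muscle fibres, blood cells and most vessel cells of the shaft are not its main targets. The controls had no driver and 1 Stat3C allele, so the driver and the loss of Stat3 cannot be told apart. All samples were total RNA, and 1 short target, an amplicon, was read for each gene.

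The cytosolic ribosome has a small subunit, which reads the messenger RNA, and a large subunit, which joins amino acids and passes the growing chain through an exit tunnel. Each ribosomal protein is present in about equal number in a ribosome, and the messenger RNAs share a pyrimidine-rich start that lets growth signals regulate their translation together. In bone, osteoblasts secrete collagen in large amounts and depend on high ribosome output. Some canonical proteins have paralogues used in particular tissues, such as Rpl3l in striated muscle and Rpl10l and Rpl39l in the testis.

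Most of the ribosomal protein amplicons analysed here did not differ past the test between the groups, with exceptions in both directions. Genes such as Rpl3, Rpl38 and Fau were not analysed here, so the results cover these members and not the whole family. Members with few reads had wide intervals. Of the 24 members, 22 had a mean of at least 1 RPM (reads of a gene's amplicon scaled to 1000000 reads) and were tested, and 2 of them passed the test. Rps9 was higher in the knockout and Rpl39l was lower, while the other 20 did not pass (limma, Benjamini-Hochberg adjusted p over 12846 amplicons, threshold 0.05). The 2 calls are 9.09% of the members tested, against a background of 16.7% of all amplicons tested, with 5.71% higher and 11% lower. The median difference over the members tested was 0.06 on the log2 scale, beside -0.06 over all amplicons tested. With TMM scaling these medians were 0.12 and -0.01, and the share of higher calls among all calls went from 34.2% to 52.9%.

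Sequences are shown for both members that passed, to show how alike the pairs are. Rps9 stands beside its closest match in the annotation and Rpl39l beside the canonical gene Rpl39. The small-subunit gene Rps9 (ENSMUSG00000006333.14) lies on chromosome 7 from 3703993 to 3706897 on the plus strand of GRCm38. A processed pseudogene, Gm5905, lies on the same chromosome from 141177885 to 141178464 and was 97.3% identical over 585 aligned bases of the coding sequence. The opening 120 coding bases of Rps9 and the matching stretch of Gm5905 differ at 3 bases, shown in capitals.
Rps9: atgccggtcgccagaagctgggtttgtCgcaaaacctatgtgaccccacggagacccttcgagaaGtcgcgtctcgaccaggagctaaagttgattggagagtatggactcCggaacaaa
Gm5905: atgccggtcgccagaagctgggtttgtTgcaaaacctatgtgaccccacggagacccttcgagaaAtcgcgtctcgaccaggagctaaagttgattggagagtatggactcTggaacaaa

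The large-subunit gene Rpl39l (ENSMUSG00000039209.12, chromosome 16, 10170226 to 10174911, plus strand) encodes the paralogue of Rpl39, which lines the exit tunnel. Its coding sequence of 156 bases was set against that of Rpl39, which lies on the X chromosome. They were 85.3% identical, differed at 23 bases (in capitals) and shared no unbroken stretch above 38 bases. No other gene of the GENCODE M21 annotation was at least 90% identical to Rpl39l over 100 bases.
Rpl39l: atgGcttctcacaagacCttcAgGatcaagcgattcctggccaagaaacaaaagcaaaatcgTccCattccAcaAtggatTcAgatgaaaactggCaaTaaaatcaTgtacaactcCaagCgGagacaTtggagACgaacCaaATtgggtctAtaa
Rpl39: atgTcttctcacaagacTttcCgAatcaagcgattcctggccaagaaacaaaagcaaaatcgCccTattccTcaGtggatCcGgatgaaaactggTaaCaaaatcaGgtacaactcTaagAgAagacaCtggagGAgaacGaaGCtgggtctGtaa
The sources used here do not place the amplicons within these genes, so which of these letters were read is not known.

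Depth was 9126493 to 13376550 reads per library, recovered from the deposited RPM values, and a read was worth 0.0748 to 0.110 RPM. The Stat3 amplicon was at 211, 201 and 211 RPM in the controls against 208, 201 and 170 RPM in knockouts, and did not pass the test (log2 fold change -0.11, limma adjusted p = 0.380). The sources used here do not say whether this amplicon lies in the deleted part, so it checks nothing about the labels. Of 9 osteoblast markers 7 were analysed, and their summed level was 46546 to 50448 RPM in the controls against 40739 to 45207 RPM in knockouts. The labels do not say whether samples were separate embryos, so the p-values reflect no more than the spread among these samples, and that spread may be technical.

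Rps9 had the clearest difference among the members. The protein sits at the messenger RNA entry side of the small subunit and takes part in the accuracy of decoding. Its amplicon gave 2375, 2603 and 2658 RPM in control replicates 1 to 3. In knockout replicates 1 to 3 it gave 3546, 3568 and 3729.6 RPM. Every knockout library was above every control library. The means were 2545 ± 150.4 RPM and 3615 ± 100.3 RPM (SD, n = 3 each), and the mean rose by 42.0%. The log2 fold change was 0.51 ± 0.07 (SE), with a 95% interval of 0.36 to 0.65 and an adjusted p of 3.64e-05 (limma). An exact two-sided permutation test of this amplicon alone gave p = 0.1, the smallest that 3 against 3 can give.

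Rps9 also differed when it was set against other ribosomal proteins of the same library, a measure that does not depend on scaling between libraries. The ratio of Rps9 to the median of the 9 other members with a control mean over 1000 RPM was 1.23, 1.26 and 1.33 in controls. In knockouts this ratio was 1.70, 1.73 and 1.73, so the libraries did not overlap. Set against the median of 8 abundant members, leaving out Rps9 and the gene itself, Rps14 had ratios of 0.981 to 1.04 in controls and 1.17 to 1.23 in knockouts. The same ratio was 0.629 to 0.686 and 0.526 to 0.576 for Rpl32, and 0.816 to 0.973 and 0.697 to 0.804 for Rps21. These 3 genes did not overlap by this measure either, although Rps21 overlapped in RPM. Rps9 was past the threshold in 19 of 19 alternative fits, with log2 fold changes of 0.46 to 0.57. Around the gene, within 100 kb on either side, 10 other genes were tested, none was higher and 1 was lower, beside the background of 5.71% higher and 11% lower. The lower gene was Mboat7 (24.2 RPM in controls, log2 fold change -0.55, limma adjusted p = 0.00433), which encodes a lipid-remodelling acyltransferase and was chosen for mention after its value was seen. Tsen34, the nearest gene upstream, had a log2 fold change of 0.17 and an adjusted p of 0.138. Pirb, the next gene downstream and also chosen after its values were seen, gave 4.21, 3.81 and 4.52 RPM in the controls against 7.96, 6.14 and 4.70 RPM in knockouts. Its groups did not overlap, and its log2 fold change of 0.47 missed the threshold (limma adjusted p = 0.0821).

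Rpl39l was the member past the test in the lower direction. The amplicon gave 92.3, 90.8 and 98.5 RPM in the controls against 70.5, 68.04 and 75.2 RPM in knockouts. All 3 knockout libraries lay below all 3 control libraries. The means were 93.9 ± 4.06 and 71.3 ± 3.65 RPM (SD, n = 3 each), and the log2 fold change was -0.39 ± 0.09 (SE, 95% interval -0.57 to -0.21, limma adjusted p = 0.00363). It was past the threshold in 19 of 19 alternative fits, where the log2 fold change ranged from -0.43 to -0.33. Its canonical partner Rpl39 was not analysed here, so the paralogue and the canonical gene could not be compared.

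**Figure D1:**
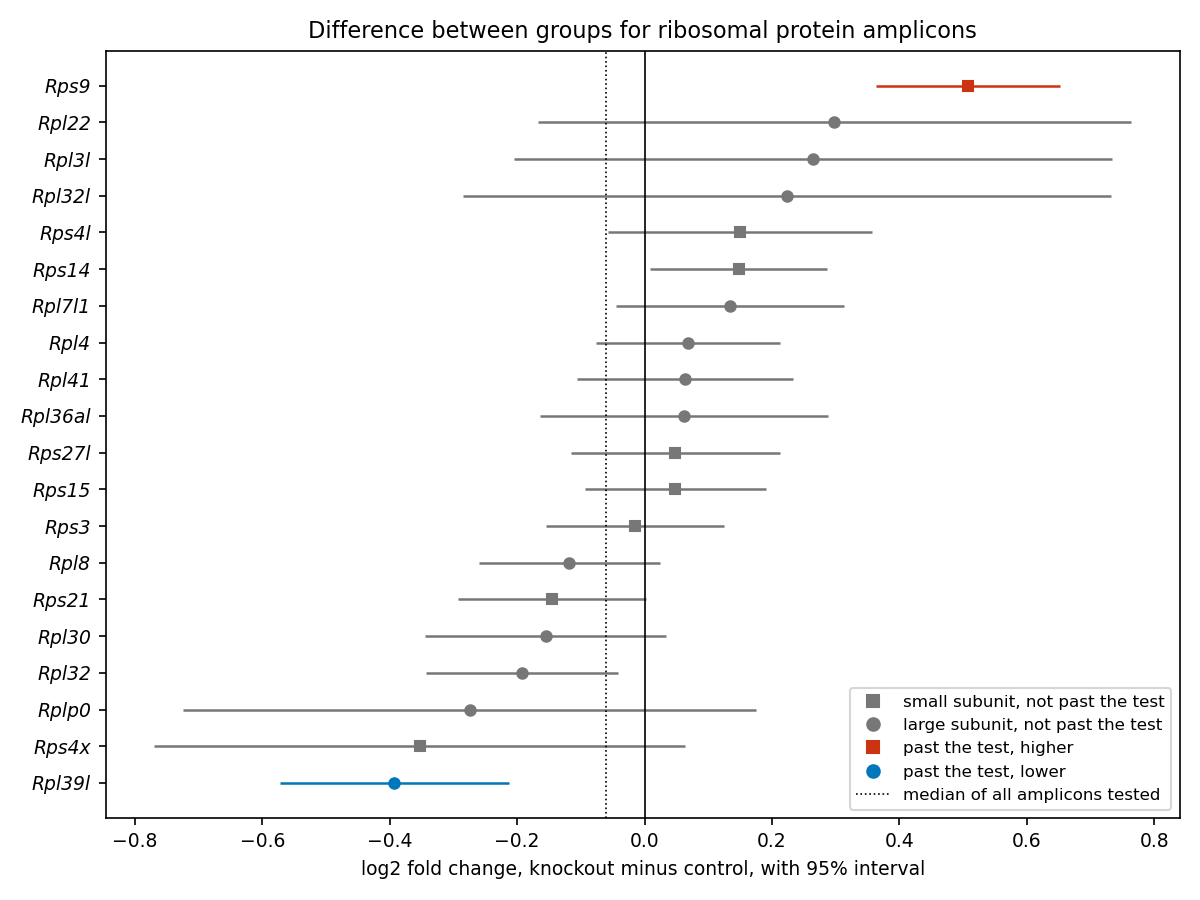
Log2 fold change (knockout minus control, x axis) of 20 of the 22 ribosomal protein amplicons tested, with 95% intervals from the limma fit over 3 libraries per group; squares are small-subunit and circles large-subunit genes, and the dotted line is the median of all amplicons tested (-0.06). Rps9 at 0.51 and Rpl39l at -0.39 are the coloured members past the test, and the wide intervals belong to members read at under 5 RPM.

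The canonical small-subunit proteins other than Rps9 had estimates between -9.58% and 10.8% where their control mean was over 1000 RPM. Rps14, at the platform near the messenger RNA exit, gave 1936, 2062 and 1994 RPM in the controls against 2161, 2197 and 2279.5 RPM in knockouts. Its groups did not overlap, yet it missed the threshold at a log2 fold change of 0.15 ± 0.07 (SE, limma adjusted p = 0.135). Rps14 passed with median-of-ratios scaling (0.21, adjusted p = 0.0498), with edgeR (0.20, 0.0408) and with DESeq2 (0.21, 0.0313). Rps21 gave 1926, 1776 and 1695 RPM in the controls against 1619.5, 1711.5 and 1546 RPM in knockouts. These ranges overlapped, and its log2 fold change was -0.15 (limma adjusted p = 0.169), with a call under quantile normalization (-0.23, adjusted p = 0.0263).

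Other abundant small-subunit members showed no difference past the test. Rps15, which reaches toward the decoding centre, had a mean of 3203 ± 53.0 RPM in the controls against 3314 ± 169 RPM in knockouts. Rps3, which with Rps9 and Rps2 forms the messenger RNA entry channel, had 2123 ± 89.0 and 2100.3 ± 52.0 RPM (SD, n = 3 each for both genes), a log2 fold change of -0.02 with a 95% interval of -0.16 to 0.13. In both the groups overlapped, including Rps3 at the same channel as Rps9.

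Among abundant large-subunit proteins the estimates pointed both ways and none passed. Rpl4, whose long loop reaches into the exit tunnel, gave 2874, 2997 and 3192 RPM in the controls against 3315, 3124.5 and 3060.3 RPM in knockouts, with overlapping groups. Rpl32 gave 1342, 1459 and 1307 RPM in the controls against 1116, 1203.5 and 1279 RPM in knockouts. Its groups did not overlap, and the log2 fold change of -0.19 ± 0.07 (SE) missed the threshold (limma adjusted p = 0.0729). Rpl32 passed with quantile normalization (-0.27, adjusted p = 0.0146), with sample weights (-0.22, 0.0271) and without knockout replicate 3 (-0.24, 0.0408). Rpl8, which lies close to the peptidyl transferase centre, gave 1203, 1285 and 1226 RPM in the controls against 1183, 1144 and 1096 RPM in knockouts, also without overlap (log2 fold change -0.12, limma adjusted p = 0.249).

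Across the 9 abundant members that did not pass, estimates ran from -12.4% to 10.8%. The outer bounds of their 95% intervals were -0.34 and 0.29 on the log2 scale. Groups did not overlap for 5 of the 22 members tested, 2 higher and 3 lower. Over all amplicons tested this share was 33.8%, with 11.9% higher and 21.9% lower. The spread between libraries was narrow for the abundant members, with a median coefficient of variation of 4.75% in the controls against 3.99% in knockouts.

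**Figure D2:**
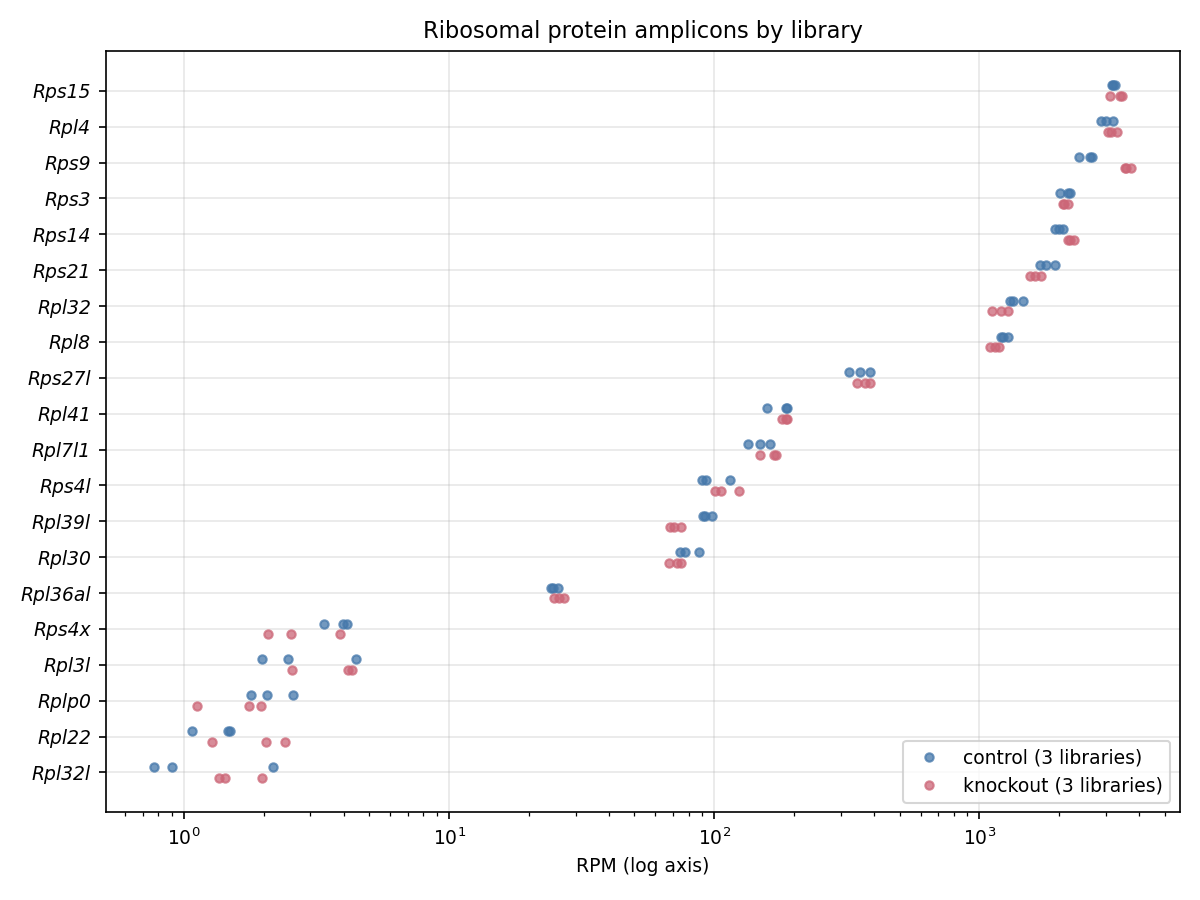
RPM (x axis, log scale) of 20 of the 22 ribosomal protein amplicons tested in each of the 6 libraries, blue for the 3 controls and red for the 3 knockouts, with genes ordered by control mean. Rps9 and Rpl39l are separated between groups, Rps14, Rpl32 and Rpl8 are separated more narrowly, and the scatter widens for the 5 genes at the bottom, all under 5 RPM.

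The level read at an amplicon did not follow the equal number of the proteins in a ribosome. Among canonical members control means ran from 3203 RPM for Rps15 to 0.447 RPM for Rps2. The lowest of all members was the paralogue Rpl10l at 0.0287 RPM. Of all members 10 were over 1000 RPM and 7 were under 5 RPM in both groups, with the paralogues Rpl3l, Rpl10l and Rpl32l among the 7. Each gene was read at a single target whose efficiency is not known, so levels cannot be ranked between genes. Canonical genes were among the lowest, with Rps4x at 3.82 ± 0.398 RPM, Rplp0, the base of the stalk that binds elongation factors, at 2.14 ± 0.399 RPM, Rpl22 at 1.34 ± 0.237 RPM and Rps2 at 0.447 ± 0.210 RPM in controls (SD, n = 3). For Rps2 this meant 3, 9 and 5 reads in the controls against 8, 3 and 2 reads in knockouts.

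The 24 genes differed in how many other annotated genes carry near-identical sequence, defined as at least 90% identity over 100 bases, or over 80% of a shorter sequence. Rps2 had 55 such genes, of which 54 were pseudogenes, Rps4x had 8, Rplp0 had 6 and Rpl22 had 4. The 7 members under 5 RPM had a median of 6 copies, with a range of 0 to 55, and the 10 members over 1000 RPM a median of 2.5, with a range of 0 to 9. The ranges overlap, and Rpl32, at over 1000 RPM, had 9. Whether reads were shared with, or lost to, such copies was not tested.

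The low canonical members gave no call in either direction. Rps4x, the X-linked small-subunit gene, was at 4.12, 3.96 and 3.37 RPM in the controls against 2.54, 2.08 and 3.88 RPM in knockouts (log2 fold change -0.35, 95% interval -0.77 to 0.06, limma adjusted p = 0.240). Rplp0 had a log2 fold change of -0.27 and Rpl22 of 0.30, with adjusted p-values of 0.415 and 0.392. Rpl22 is known for its role in T cell development. All 3 overlapped between the groups, and at these read numbers a difference as large as that of Rps9 lay inside the interval of each in 1 direction.

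At intermediate levels stood Rpl41, a very short basic protein that bridges the subunits, and Rpl30. Rpl41 had 177 ± 16.4 RPM in the controls against 185 ± 3.77 RPM in knockouts, a log2 fold change of 0.06. Rpl30 had 79.9 ± 6.80 and 71.6 ± 3.74 RPM, a log2 fold change of -0.15 (limma adjusted p = 0.259, SD and n = 3 each). Both overlapped between groups, and 6 other genes, 3 of them pseudogenes, are near-identical to Rpl41 and 16 pseudogenes to Rpl30.

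Among the 8 paralogues, Rpl39l was the member past the test of the 7 tested. This is 14.3%, against a background of 16.7% of all amplicons tested, with 11% lower. The other 6 tested had estimates above 0, but the interval of each included 0, so their direction is not settled. These 6 include Rps4l and Rpl32l, which are annotated as pseudogenes. Rps27l, a p53-responsive paralogue of Rps27, had 356 ± 33.0 and 367 ± 21.2 RPM. Rpl7l1 had 148 ± 14.2 and 163 ± 11.7 RPM, and Rpl36al had 24.9 ± 0.712 and 26.1 ± 1.15 RPM (SD, n = 3 each). None of these 3 was separated between the groups, and their log2 fold changes were 0.05, 0.13 and 0.06.

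Rps4l gave 93.2, 90.01 and 115 RPM in the controls against 100.3, 106 and 124 RPM in knockouts. GENCODE annotates Rps4l as a transcribed processed pseudogene, and it was 79.8% identical to the coding sequence of Rps4x. Its log2 fold change was 0.15 (limma adjusted p = 0.327) and its groups overlapped. Rpl32l, annotated as a processed pseudogene 96.0% identical to Rpl32, was at 1.28 ± 0.771 and 1.59 ± 0.336 RPM, with a log2 fold change of 0.22 (adjusted p = 0.575).

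The muscle paralogue Rpl3l was low, at 4.47, 2.47 and 1.97 RPM in the controls against 4.32, 4.16 and 2.56 RPM in knockouts, with overlapping groups (log2 fold change 0.26, limma adjusted p = 0.457). Skeletal muscle markers were abundant in the same libraries, with a sum over 10 genes of 15729 to 16035 RPM in the controls against 14108 to 15052 RPM in knockouts. Each gene was read at a single target of unknown efficiency, so the level of Rpl3l cannot be ranked against these markers. Rpl10l was nearly unread, with 1 read in the control libraries together and 1 in the knockout libraries, and was below the filter. Canonical partners Rpl3, Rpl7, Rpl10, Rpl36a and Rps27 were not analysed here.

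The summed level of these 24 members, which is not that of the whole family, shows how far Rps9 weighs on it. The sum was 21269, 22220.2 and 22008 RPM in the controls against 22857, 22874 and 23531 RPM in knockouts, or 2.18 ± 0.0499% and 2.31 ± 0.0384% of reads (SD, n = 3 each). Every knockout library was above every control library, and the mean was 5.75% higher. Without Rps9 it was 0.965% higher and the ranges overlapped, at 18895 to 19617 RPM in the controls against 19306 to 19802 RPM in knockouts. With TMM scaling the difference of the sum over all 24 was 9.97%. The small-subunit members summed to 15672 ± 304 and 17056 ± 441 RPM and the large-subunit members to 6160.5 ± 203 and 6032 ± 88.6 RPM.

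**Figure D3:**
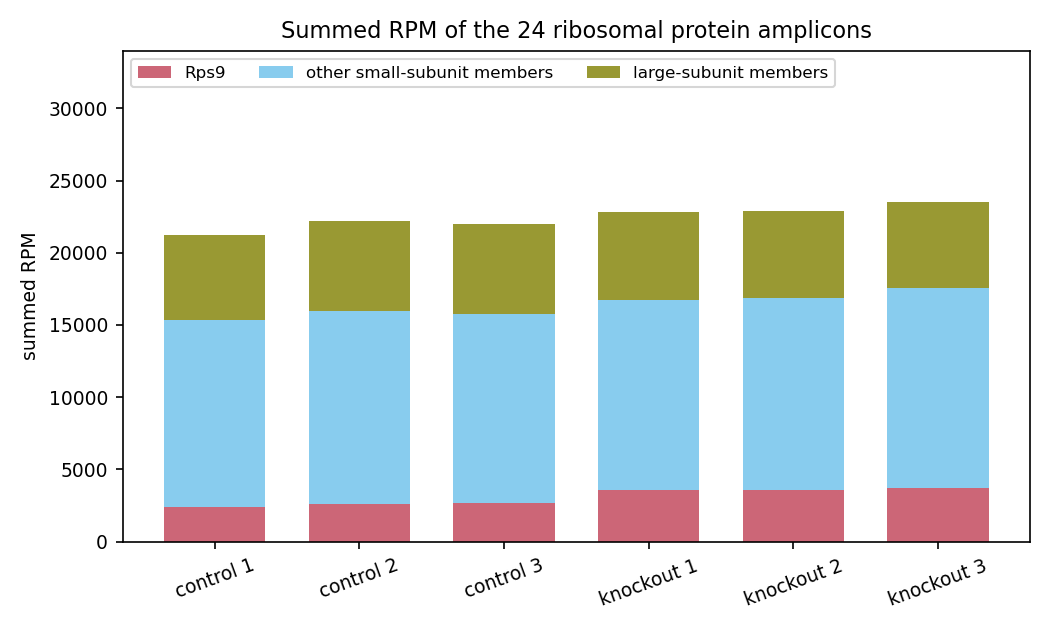
Summed RPM (y axis, from 0) of the 24 ribosomal protein amplicons in each of the 6 libraries, split into Rps9, the other small-subunit members and the large-subunit members. The Rps9 segment rises from 2375 to 2658 RPM in controls to 3546 to 3729.6 RPM in knockouts, and the large-subunit segment stays between 5926 and 6279 RPM in all 6 libraries.

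Rack1, a scaffold protein of the small subunit whose symbol falls outside the rule, had 3481 ± 146 RPM in the controls against 3449 ± 31.95 RPM in knockouts (SD, n = 3 each). Its log2 fold change was -0.01 ± 0.07 (SE, limma adjusted p = 0.926), and the sign turned with TMM scaling (0.04). The listed ribosomal protein gene Fau was not analysed here. Of 21 listed genes tied to Diamond-Blackfan anaemia, an inherited failure of red cell production, Rpl8 alone was analysed, and the 11 listed genes tied to skeletal or patterning phenotypes, such as Rpl38, were not analysed here.

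Genes that build, supply or regulate ribosomes were taken from 8 lists of pathway genes and from Rack1. Together 131 of them were tested, and 5 were higher and 17 lower, or 16.8% against the background of 16.7%, in which lower calls (11%) also outnumbered higher calls (5.71%). Their median was -0.06 on the log2 scale, as over all amplicons tested. The split moved with the scaling, to 8 higher and 9 lower with TMM. Without control replicate 1 the counts were 3 and 8, without control replicate 2 they were 3 and 7, without knockout replicate 1 there were 3 higher, and without knockout replicate 3 there were 10 lower.

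In nucleolar processing of the small subunit, 1 of 26 genes was higher and 2 were lower, against 5.71% higher and 11% lower over all amplicons. Utp14a, part of the processome that trims the precursor RNA, went from 36.7 ± 3.17 to 26.0 ± 1.26 RPM (log2 fold change -0.48, limma adjusted p = 0.00399; SDs here and in the other lists are over 3 libraries). The processome GTPase gene Bms1 was higher at 0.25 (0.0490), and Tcof1, mutated in Treacher Collins syndrome, was lower at -0.44 (0.0493) with overlapping groups. Bms1 was called in 11 and Tcof1 in 4 of 19 alternative fits, whereas Utp14a was called in 19.

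Of 30 large-subunit assembly factors 5 were lower and none higher, against 11% lower and 5.71% higher over all amplicons. The 5 became 2 with TMM, median-of-ratios scaling and edgeR, 3 with DESeq2, quantile normalization, no filter or without control replicate 3, and 1 without control replicate 2 or without a trend. Efl1, a GTPase that with Sbds releases the anti-association factor Eif6 from new large subunits, went from 55.9 ± 4.47 to 41.4 ± 1.48 RPM, a log2 fold change of -0.42 (limma adjusted p = 0.00516), and was called in 19 of 19 alternative fits. Nip7 was lower at -0.41, Rpf1 at -0.35 and Pes1 at -0.30, and they were called in 17, 9 and 12 of the 19. The fifth was Gnl2, at -0.31.

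Late maturation factors of the small subunit had 1 higher and 3 lower of 11, against 5.71% higher and 11% lower over all amplicons. None was lower under quantile normalization or without a trend, and 1 was lower without control replicate 1, control replicate 3 or knockout replicate 1. The higher call was lost without a trend and without control replicate 1, control replicate 2 or knockout replicate 1. The export factor gene Ltv1 was higher at a log2 fold change of 0.28 (limma adjusted p = 0.0224). Nob1, the nuclease that makes the final cut of the small-subunit RNA, was lower at -0.47, its partner Pno1 at -0.40 and the methyltransferase gene Dimt1 at -0.38. Each was called in 11 to 15 of the 19 alternative fits. Among 15 genes of RNA polymerase I and its factors, Rrn3, which recruits the polymerase to ribosomal DNA, was the 1 that was lower (-0.36, adjusted p = 0.0356), and it was called in 9.

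Chaperones and import receptors had 2 higher and 1 lower of 11, against 5.71% higher and 11% lower over all amplicons. Naca, whose protein meets nascent chains at the exit tunnel, gave 877, 886 and 855 RPM in the controls against 1098, 1159 and 1151 RPM in knockouts. The groups were well apart, and the log2 fold change was 0.38 ± 0.07 (SE, limma adjusted p = 5.26e-04), called in 19 of 19 alternative fits. The import receptor gene Kpnb1 rose from 353 ± 16.6 to 456 ± 27.9 RPM (0.37, adjusted p = 0.00172), and missed the threshold without a trend in the variance model (0.0517). Ipo7, which carries ribosomal proteins into the nucleus, was lower at -0.28 (0.0382), and was called in 8 of the 19.

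In signalling to the ribosome 1 of 18 genes was higher and 1 lower, against 5.71% higher and 11% lower over all amplicons. The kinase gene Akt1 rose from 365 ± 14.7 to 452 ± 20.7 RPM (log2 fold change 0.30, limma adjusted p = 0.00603), with a loss of the call without a trend in the variance model (0.0746). Rps6kb1, the kinase that phosphorylates ribosomal protein S6, was lower at -0.26 (0.0446), and was called in 8 of the 19. Of 9 p53-response genes tested, which free ribosomal proteins can induce through Mdm2, 1 was lower, Zmat3 at -0.47 (0.0290, called in 10 of the 19). In rescue and dormancy of ribosomes 3 of 12 were lower and none higher, against the same background of 11% and 5.71%. The split depended on the scaling, with 2 higher under TMM, median-of-ratios scaling, edgeR and DESeq2, beside 3 lower under TMM and 2 lower under DESeq2. Without control replicate 1, control replicate 2 or knockout replicate 3 there was 1 lower. The 3 were Ascc3, a helicase that splits collided ribosomes, at -0.55 (0.00191, called in 19), the recycling factor gene Abce1 at -0.34 (0.0165, called in 15) and Gcn1l1 at -0.59 (0.0138, overlapping groups, called in 12).

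**Figure D4:**
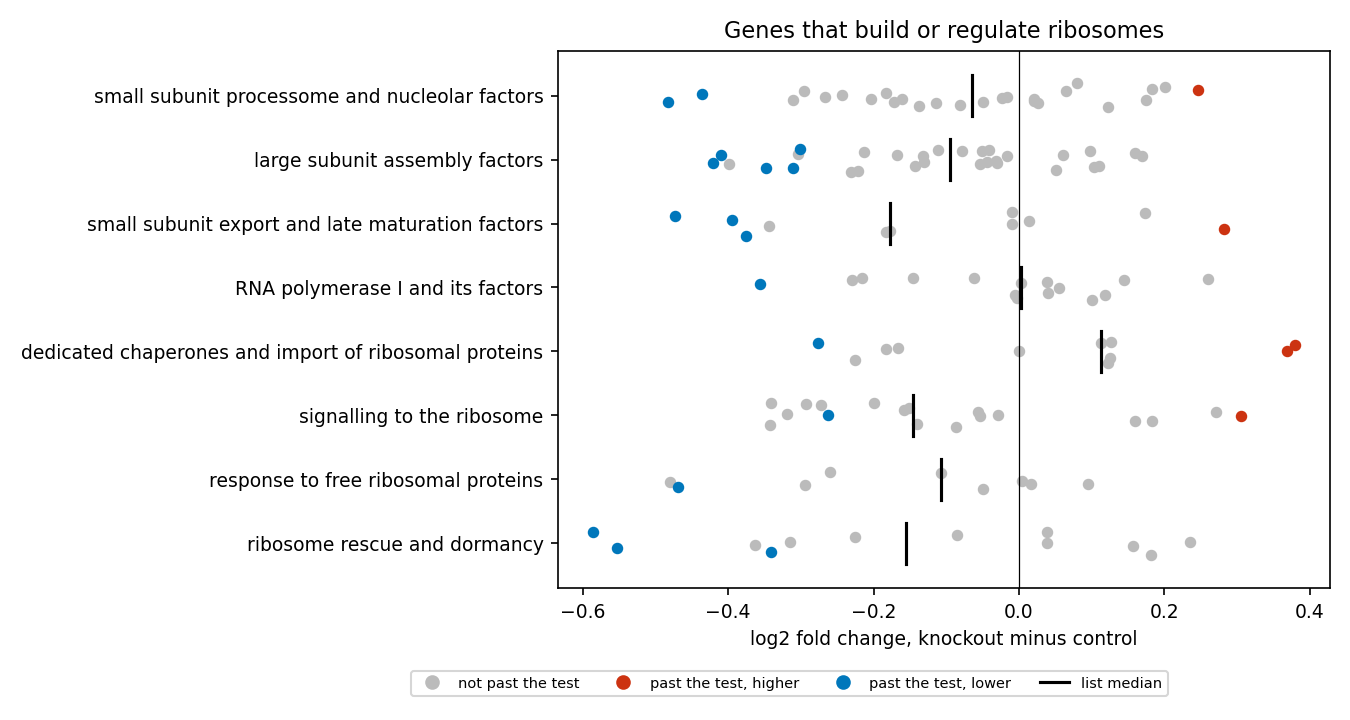
Log2 fold change (knockout minus control, x axis) of the tested genes in 8 lists of factors that build or regulate ribosomes, 1 point per gene, with the list median as a black bar; coloured points passed the limma test. Lower calls outnumber higher calls (17 against 5), as they do over all amplicons (1409 against 733), Naca and Kpnb1 stand at the right of the chaperone and import list, and the split of calls moved to 8 higher and 9 lower with TMM scaling.

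Some markers of several cell types also passed the test, beside a background of 11% lower and 5.71% higher over all amplicons tested. With TMM scaling that background was 928 lower and 1042 higher calls. In bulk tissue, fewer cells of a type and less RNA per cell cannot be told apart. Chondrocyte markers passed lower in 5 of 7 tested, with a sum over 8 genes of 418 to 442 RPM in the controls against 327 to 362 RPM in knockouts. Neutrophil markers were lower in 5 of 5, at 88.4 to 90.1 and 37.4 to 40.8 RPM over 7 genes. Macrophage markers were higher in 4 and lower in 1 of 7, at 384 to 407 and 483 to 522 RPM over 8 genes. Tendon markers were higher in 2 of 3, at 1638 to 1815 and 2348 to 2739 RPM, and osteoclast markers in 2 of 7, with 1 lower, at 746 to 812 and 1065 to 1087 RPM. Osteoblast markers were lower in 5 of 7 and skeletal muscle markers in 4 of 10. Endothelial and proliferation markers were each lower in 2 of 5, and 1 of 4 erythroid markers tested was higher, counts that rest on few genes. The part of these cell types in the differences of Rps9, Rpl39l and the assembly factors was not tested.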

How the data were processed

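Libraries were made with the Ion AmpliSeq mouse transcriptome panel from Trizol-extracted RNA, per the labels' protocols. The authors deposited a table of RPM values, each amplicon's reads scaled to 1000000, with 23930 amplicons and 6 sample columns. The sources used here name no aligner, counter or genome build. All values above 0 (100%) were whole multiples of a step within 0.1 read, which gave the reads. Without molecular identifiers, reads cannot be taken as separate molecules. Within groups, libraries differed beyond counting noise (chi-square per degree of freedom 4.54 to 7.80) and each was kept.

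The groups were compared on log2(RPM + 1) with limma 3.58.1 in R 4.3.3 (empirical Bayes with a trend), over the 12846 amplicons whose mean reached 1 RPM. This scale understates changes of low genes. Intervals are 95% from that fit. Alternatives included edgeR 4.0.16 and DESeq2 1.42.0 on recovered reads. The fit was tested on simulated data whose set changes were larger than those reported for members and pathway genes. Detection of changes as small as theirs was not tested. Copies were found with blastn 2.17.0 on GENCODE M21 transcripts (GRCm38), and gene positions are from the same annotation. 22 members have a coding model there. RefSeq neighbours come from GRCm38.p6.

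Genes named were all members past the threshold, the 5 greatest and 5 least log2 fold changes, paralogue pairs, Stat3, Rack1 and up to 4 called genes per pathway list. Some members are not reported here by name or plotted, and enter counts, medians and sums alone. Other members were described for completeness, and Gnl2 to complete its list's count. Members and lists were chosen with earlier results of these data known.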

Additional observations from a re-analysis of the deposited data

How the results depend on the processing

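Rps9 and Rpl39l kept their direction and call in 19 of 19 alternative fits. The count of members higher in the knockout was 1, and 2 with median-of-ratios scaling, edgeR and DESeq2, where Rps14 was added. The count lower was 1, with 3 under quantile normalization (Rpl32 and Rps21 added) and 2 with sample weights (Rpl32 added), and it ranged from 1 to 2 when each library was left out. The members' median log2 fold change of 0.06 became 0.12 with TMM, 0.12 with median-of-ratios scaling, 0.11 with edgeR and 0.12 with DESeq2. The sum over all members, 5.75% higher, became 9.97% with TMM, 10.4% with median-of-ratios scaling, -1.95% without the 5 members with the greatest mean and, chosen after seeing the data, 0.965% without Rps9. For pathway genes, 5 higher and 17 lower became 8 and 9 with TMM, 8 and 8 with median-of-ratios scaling, 8 and 9 with edgeR, 9 and 8 with DESeq2, and 1 and 3 without a trend. The lower count was 8 without a filter and 7 with quantile normalization. Leaving out each library gave 3 to 6 higher and 7 to 15 lower. The causes were not tested, apart from the members left out of a sum. Over all members tested the sign changed in 7 of 413 gene and setting pairs, all for the uncalled Rps3, Rps27l or Rpl41. Scaling also moved the share of higher calls over all amplicons, from 34.2% to 52.9% with TMM.

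The replicate number as a block changed no member's call (1 higher and 1 lower; Rps9 adjusted p = 1.67e-05, Rpl39l 0.00233). Same-numbered libraries share only a number: correlations of their deviations were 0.0126, -0.0193 and 0.107, and the block moved calls over all amplicons from 2142 to 2462. Members under 5 RPM had few reads and the widest intervals.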
